A study of Mus musculus with 9 samples.

Results

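The genes described here encode the transport motors of the cell, their accessory chains and the adaptors that join them to cargo: kinesins, kinesin light chains, cytoplasmic dyneins, dynactin, JIP (Mapk8ip) and Trak adaptors, the dynein regulators Pafah1b1 and Ndel1, and the myosins numbered by class. They were chosen by gene symbol alone, which gave 99 of the 23528 symbols in the table, held in 101 of its 24378 gene rows. A total of 98 members were sorted by role into 14 groups, and 1, the pseudogene Kif4-ps, was in no group and had no molecule. Polyadenylated RNA was counted in 9 cells taken singly from the hypothalamic paraventricular nucleus of C57Bl6/N mice aged 21 to 28 days. The label of every cell is a single secretagogin+ cell, and the numbers 1 to 9 in the labels serve as their names here. There was no treatment and no second group, and no animal is named for any cell. The 9 cells were therefore treated as 1 sample, no p-value was computed, and differences between cells are descriptions of these cells.

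Neurons keep most of their protein synthesis in the cell body, so cargo has to be carried along the axon on microtubules. Kinesins walk to the plus ends of microtubules, which point away from the cell body in axons, and cytoplasmic dynein with its activator dynactin walks back toward it. Other kinesins act in the mitotic spindle or in cilia, and myosins move on actin. Neuroendocrine cells of the paraventricular nucleus send dense-core vesicles filled with peptide hormone down long axons to the median eminence and the posterior pituitary, a cargo for which Kif1a is a known motor.

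Cell 1 was the shallowest, with 1021 gene molecules, cell 6 came next with 3393, and cell 5 was the deepest with 26466, around a median of 9573. For a gene with no molecule the limit was set at 3 molecules, which is 29.4 per 10000 gene molecules for cell 1, 8.84 for cell 6 and 1.13 for cell 5, so a gene missing from cells 1 or 6 could not be told from one that was too low to be seen. Intervals are exact 95% intervals (Poisson for counts, Clopper-Pearson for shares) and cover counting error only. The labelled gene, Scgn, had 1, 11, 1, 3 and 1 molecules in cells 2, 3, 5, 8 and 9 and 0 in the others, where up to 29.4 (cell 1), 2.50 (cell 4), 8.84 (cell 6) and 4.19 (cell 7) per 10000 are allowed. The 8 neuron markers used here had 1 to 203 molecules per cell, or 4.99 to 76.7 per 10000. All 8 were seen in cells 2 and 5, 7 in cells 3 and 9, 5 in cells 7 and 8, 4 in cell 4, 3 in cell 6 and 1 in cell 1. Markers of other cell types were high in a few cells. Cell 5 held 367 molecules of the oligodendrocyte markers, with 7 of 7 seen, and the other cells held at most 2. Cell 8 held 72 molecules of ependymal markers (4 of 4 seen) and 29 of astrocyte markers (4 of 5 seen, Gfap at 0). Cells 4 and 7 held 115 and 52 molecules of endothelial markers (6 and 5 of 6 seen, Pecam1 at 0 in cell 7), and cell 4 also held 2376 of blood markers (3 of 5 seen). Cells 5 and 6 held 3 molecules of endothelial markers each (1 of 6 seen), which is 8.84 per 10000 in the shallow cell 6. Counts of the main groups are therefore also given without cells 4, 5, 7 and 8, with cell 6 kept.

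Most of the mitotic kinesins share a short sequence near their start sites, shown here because the mitotic kinesins had 3 molecules in all 9 cells together. The cell cycle genes homology region, or CHR, has the core letters TTTGAA and is a known binding site of the MuvB complex, which holds late cell cycle genes off in resting cells. In windows from 250 bases before to 50 bases after the start of transcription (RefSeq, GRCm38.p6), TTTGAA or its reverse complement TTCAAA was present in 11 of the 12 windows found for the 13 mitotic kinesins. The same letters were present in 1 of the 9 windows found for 7 of the 9 axonal kinesins, and in 17.9% of all 32851 windows. Within 30 bases of the start site they were found in 9 of the 12 mitotic windows, in 0 of the 9 axonal windows and in 3.19% of all windows. The 9 stretches follow, each 30 bases long, 5′ to 3′ on the strand of the gene, with 1 match of the CHR letters in capitals in each; Kif20b holds the same letters again directly after the marked match, in lower case.
Kif4: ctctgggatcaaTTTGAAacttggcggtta
Kif11: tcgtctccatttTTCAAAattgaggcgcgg
Kif15: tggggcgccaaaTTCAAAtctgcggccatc
Kif18b: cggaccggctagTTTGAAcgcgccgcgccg
Kif20b: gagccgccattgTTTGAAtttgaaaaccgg
Kif22: gggccccggtaaTTCAAAagagagaagcgg
Kif23: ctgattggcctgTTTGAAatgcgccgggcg
Kifc1: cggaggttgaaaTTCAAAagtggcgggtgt
Kifc5b: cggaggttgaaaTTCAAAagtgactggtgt
The stretches are chrX:100626072-100626101 (plus strand) for Kif4, chr19:37376351-37376380 (plus) for Kif11, chr9:122951050-122951079 (plus) for Kif15, chr11:102925104-102925133 (minus) for Kif18b, chr19:34922353-34922382 (plus) for Kif20b, chr7:127042420-127042449 (minus) for Kif22, chr9:61946780-61946809 (minus) for Kif23, chr17:33890615-33890644 (minus) for Kifc1 and chr17:26917108-26917137 (plus) for Kifc5b. In 4 of them the letters run forward on the strand of the gene and in 5 they run in reverse. Kif11, Kif15 and Kif22 have them 19, 19 and 17 bases before the start. Kifc1 and Kifc5b have nearly the same stretch. Of the 3 mitotic molecules, 2 were of Kif22, which has the letters near its start, and 1 was of Kif18a, whose window does not hold them. A match of letters is a description of the sequence and shows neither binding nor repression in these cells.

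Most motor genes were seen in few of the cells. Of the 99 members, 22 had at least 1 molecule in at least 5 of the 9 cells (22.2%). A further 40 were seen in fewer cells, and 37 were not seen. Among all genes of the table, 7.00% passed the same rule of 5 cells, and 41.4% had a molecule in at least 1 cell, against 62.6% of the members. With at least 2 molecules in at least 5 cells, 11 members passed, and 2.64% of all genes. Without cells 4, 5, 7 and 8, 21 members were seen in at least 3 of the 5 remaining cells, as were 5.99% of all genes, and 17 of the 21 were also among the 22. The members had 746 molecules in all, or 81.6 per 10000 gene molecules. By cell, their level was lowest in cell 4, at 26.6 per 10000 (interval 18.2 to 37.6), had a median of 83.8, and was highest in cell 2, at 141 (interval 118 to 167). These 2 intervals do not overlap, and cell 4 lay below the intervals of all other cells. Ribosomal, mitochondrial and globin genes took 56.4% of the molecules of cell 4. Without them its motor level was 61.0 per 10000, the lowest value, against 79.9 in cell 5 and 159 in cell 2. That level rests on 32 molecules and was given no interval, so whether cell 4 still lay apart from cell 5 was not tested.

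**Figure D1:**
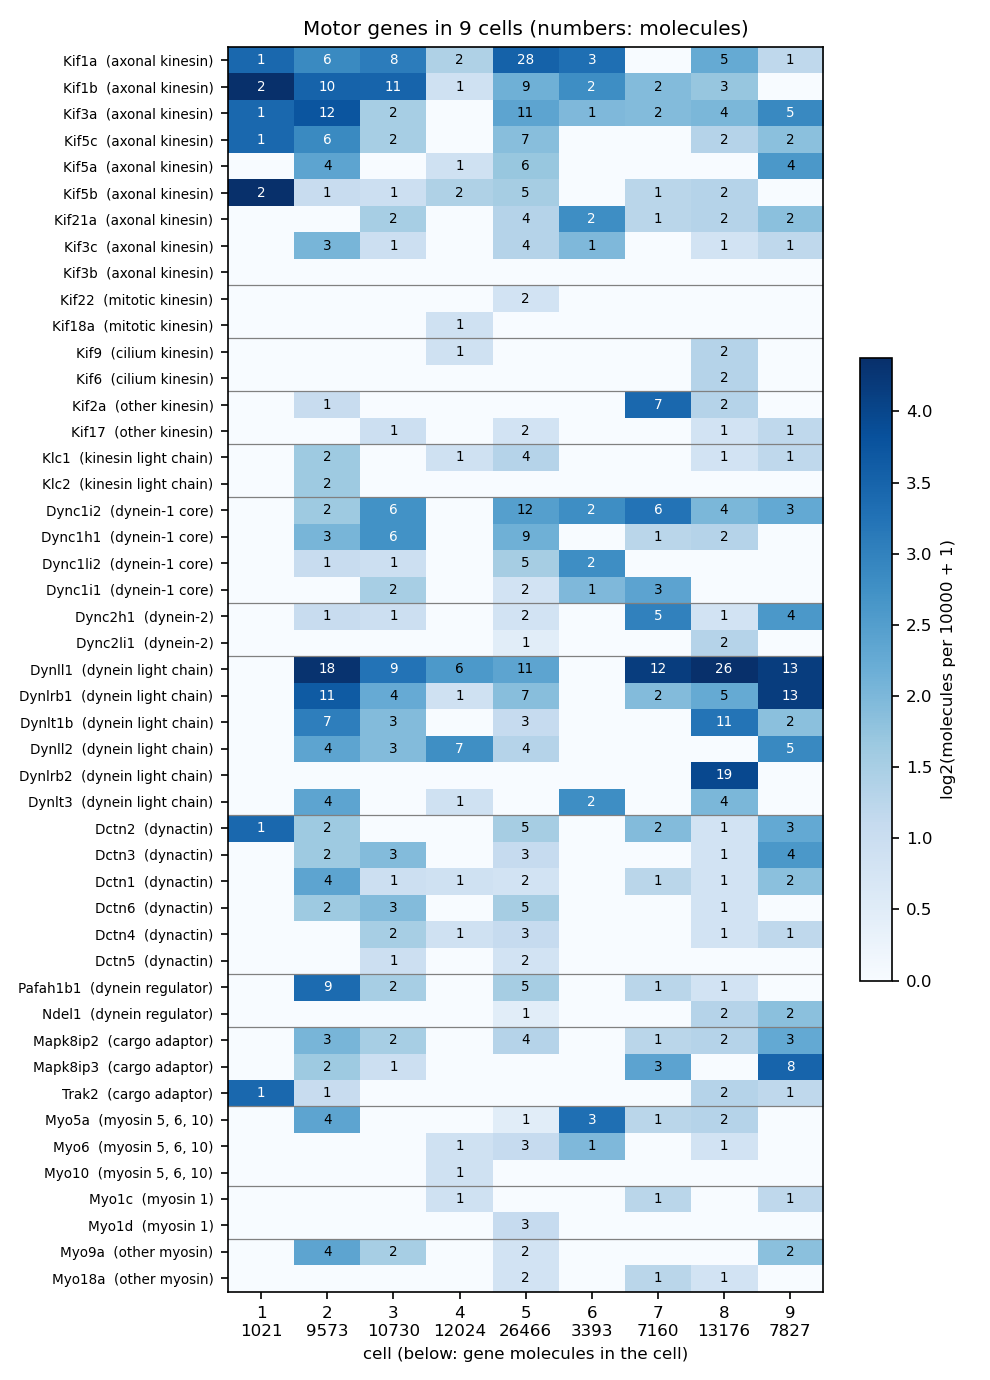
Molecules of the 47 named motor genes (rows, grouped by role) in the 9 cells (columns, with the gene molecules of each cell below). The colour is log2(molecules per 10000 + 1) and the printed number is the count of molecules; axonal kinesins and dynein light chains fill most cells, while only 3 molecules of mitotic kinesins appear.

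The axonal kinesins were present in every cell and the mitotic kinesins were nearly absent. The 9 axonal kinesins (Kif1a, Kif1b, Kif3a, Kif3b, Kif3c, Kif5a, Kif5b, Kif5c and Kif21a) had 205 molecules in all, and the 13 mitotic kinesins had 3. The axonal genes took 98.6% of these molecules (interval 95.8 to 99.7%), a ratio of 68.3 (interval 23.1 to 334). Divided by the summed length of the longest coding transcripts of each list, 59.6 and 52.9 kilobases, the lists had 3.44 and 0.0567 molecules per kilobase, a ratio of 60.6 (interval 20.4 to 296). Of the axonal genes, 7 of 9 were detected in at least 5 cells, against 7.00% of all genes. Of the mitotic genes 0 of 13 were, which for so few genes lies near that share. The lists were chosen with earlier results of these data known. On a wider axonal list that includes the light chains, 8 of 18 genes were in at least 5 cells (44.4%). On a narrower axonal list of 5 genes, 4 were in at least 5 cells. That list had 113 molecules, of which only 2, 3 and 1 lay in cells 1, 4 and 7. Without cells 4, 5, 7 and 8, the counts were 100 axonal molecules and 0 mitotic ones.

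By cell, the axonal kinesins had 7, 42, 27, 6, 74, 9, 6, 19 and 15 molecules in cells 1 to 9. Per 10000 gene molecules the lowest level was 4.99 in cell 4 (interval 1.83 to 10.9), the median 25.2 and the highest 68.6 in cell 1 (interval 27.6 to 141). The next lowest was 8.38 in cell 7 (interval 3.08 to 18.2). Cells 4 and 7, the lowest, are the 2 cells with endothelial markers above 50 molecules. Cell 4 also had the lowest level of neuron markers, 4.99 per 10000, while cell 7, at 20.9, was the median. The part of either marker list in the low axonal level was not tested. The axonal intervals of cells 4 and 7 lay below that of cell 5, at 28.0 (interval 22.0 to 35.1), and that of cell 2, at 43.9 (interval 31.6 to 59.3). Against totals without ribosomal, mitochondrial and globin genes the order of the 2 lowest cells turned, with 10.0 in cell 7 and 11.4 in cell 4. The level of cell 1 rests on 7 molecules among 1021.

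**Figure D2:**
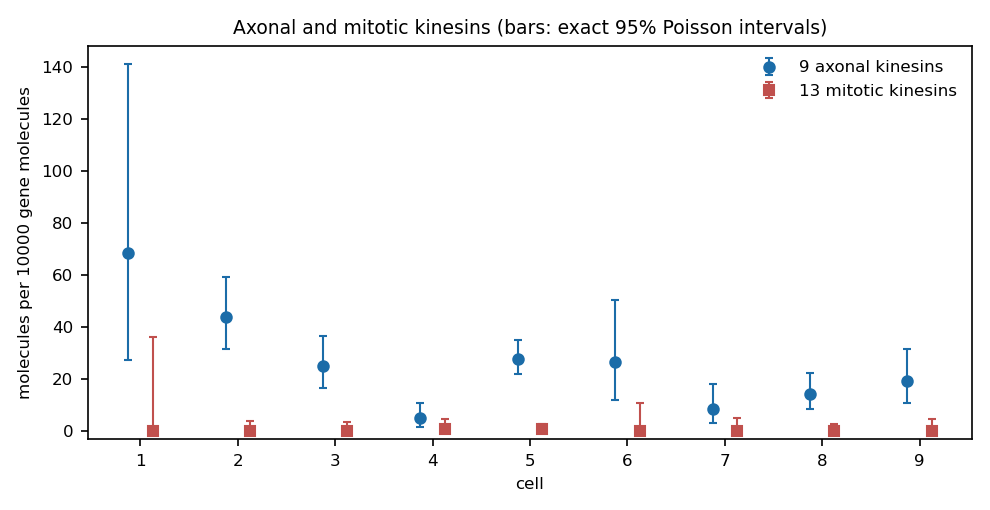
Summed level of the 9 axonal (circles) and 13 mitotic kinesins (squares) in each cell, in molecules per 10000 gene molecules, with exact 95% Poisson intervals. Axonal levels run from 4.99 in cell 4 to 68.6 in cell 1, and mitotic levels are 0 outside cells 4 and 5.

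The 3 mitotic molecules lay in cells 4 and 5. Kif22, which moves chromosome arms (chromosome 7, 127027729 to 127042471, minus strand; all gene positions are in GRCm38/mm10), had 2 molecules in cell 5. Kif18a, which controls the length of spindle microtubules, had 1 in cell 4. Both cells carry markers of other cell types, and both genes overlap an exon of another gene on the other strand, from which reads cannot be separated without a strand setting. The other 11, among them Kif11, the plus-end motor that pushes spindle poles apart, and Kif23, a motor of cytokinesis, had 0 molecules in 91370 gene molecules, which allows up to 0.328 per 10000 for each. Of the 13 mitotic kinesins, 15.4% had a molecule in at least 1 cell, beside 41.4% of all genes. The 16 further proliferation genes had 3 molecules as well, with 2 of Birc5 in cell 2 and 1 of Top2a in cell 8, and Mki67 had 0.

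Kif1a and Kif1b, the kinesin-3 motors of synaptic and dense-core vesicle precursors, were the most widely seen motors together with Kif3a. Kif1a (chromosome 1, 93015464 to 93101951, minus strand) had 1, 6, 8, 2, 28, 3, 0, 5 and 1 molecules in cells 1 to 9, so 51.9% of its 54 molecules lay in cell 5. Per 10000 gene molecules, cell 5 held 10.6 (interval 7.03 to 15.3) and cell 9 held 1.28 (interval 0.0323 to 7.12), and the other cells with at least 5 molecules held 3.79 to 7.46. Kif1b (chromosome 4, 149176319 to 149307693, minus strand) had 2, 10, 11, 1, 9, 2, 2, 3 and 0. Its level was 10.4 per 10000 in cell 2 (interval 5.01 to 19.2) and 10.3 in cell 3 (interval 5.12 to 18.3), while the interval of cell 5 was 1.55 to 6.46, below that of Kif1a in the same cell. Kif1a led in 5 cells and Kif1b in 4, and Kif1a took 57.4% of their molecules (interval 46.8 to 67.6%), so counting error alone covers equal numbers over all cells. The order turned without cells 4, 5, 7 and 8, with 19 molecules of Kif1a and 25 of Kif1b. Per kilobase of transcript, Kif1a had 6.58 molecules and Kif1b 3.91 over all cells.

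The conventional kinesins, kinesin-1, are carried by 3 heavy chain genes. Kif5a and Kif5c are known as neuronal forms and Kif5b as the form of all tissues. Kif5c (chromosome 2, 49619298 to 49774778, plus strand) had 1, 6, 2, 0, 7, 0, 0, 2 and 2 molecules in cells 1 to 9. Kif5a (chromosome 10, 127225696 to 127263348, minus strand) had 0, 4, 0, 1, 6, 0, 0, 0 and 4. Kif5b had 2, 1, 1, 2, 5, 0, 1, 2 and 0. The neuronal forms together had more molecules than Kif5b in cells 2, 3, 5 and 9, with 10, 2, 13 and 6 against 1, 1, 5 and 0. These are the 4 cells with the highest level of neuron markers, at 60.6, 31.7, 76.7 and 62.6 per 10000. The sum of 2 genes is set beside 1 gene here, and the lead in cell 3 and the tie in cell 8, with 2 of each, hang on single molecules. Kif5a alone was above Kif5b in 3 cells and below it in 5. Kif5b was the only heavy chain seen in cell 7, where it had 1 molecule. Over all cells the 3 genes had 2.92 (Kif5c), 2.38 (Kif5a) and 2.32 (Kif5b) molecules per kilobase, and Kif5c took 58.8% of the molecules of Kif5c and Kif5b (interval 40.7 to 75.4%), so counting error alone covers equal numbers. Kif5c, Kif5a and Kif5b had 11, 8 and 4 molecules without cells 4, 5, 7 and 8. Of the light chains, which link kinesin-1 to cargo, Klc1 was seen in 5 cells with 9 molecules, Klc2 had 2 in cell 2, and Klc3 and Klc4 had 0.

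Kinesin-2 was uneven among its subunits. This motor is built from Kif3a with Kif3b or Kif3c and the linker Kifap3, and it serves axons and cilia alike. Kif3a (chromosome 11, 53567379 to 53601967, plus strand) had 1, 12, 2, 0, 11, 1, 2, 4 and 5 molecules in cells 1 to 9. Kif3c (chromosome 12, plus strand) had 0, 3, 1, 0, 4, 1, 0, 1 and 1, and was seen in 6 cells, in all of them beside Kif3a. Kif3b (chromosome 2, 153291413 to 153333390, plus strand) had 0 in all 9 cells, which allows up to 0.328 per 10000. Kif3a had 38 molecules, 12.7-fold the limit of 3 for Kif3b, and 22.6-fold per kilobase of transcript, with the counting error of Kif3a left out. Kif3a took 100% of the molecules of both (interval 90.7 to 100%). Kifap3 had 25 molecules in 5 cells. Kif3a led or equalled Kif3c in every cell, and took 77.6% of their molecules (interval 63.4 to 88.2%). Kif3a had 21 molecules, Kif3c 6 and Kif3b 0 without cells 4, 5, 7 and 8. The count shows only that no molecule was assigned to Kif3b; 0% of its 30-base stretches were shared with another annotated transcript.

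The bases before the start sites of Kif3a and Kif3b are shown because the partner subunits differed so much in count. The letters GTTGCC, the core of the X-box bound by RFX factors of cilium genes, were searched on both strands (GGCAAC in reverse) and are in capitals. They are in 12.5% of all windows of 300 bases and in 29.3% of the 92 windows of the motor genes. Of the 9 windows found for 7 axonal kinesins, 3 hold them (those of Kif1a, Kif3a and Kif3c). Kif3a has them 98 bases before the start, and these letters are not in the window of Kif3b. Near matches were not searched, and the stretch of Kif3b holds gttgct, which differs in the last letter alone. The search therefore does not show that Kif3b lacks a related site, and a match of letters does not show binding. The stretches are chr11:53567119-53567368 and chr2:153291166-153291412, both on the plus strand and 250 and 247 bases long.
Kif3a: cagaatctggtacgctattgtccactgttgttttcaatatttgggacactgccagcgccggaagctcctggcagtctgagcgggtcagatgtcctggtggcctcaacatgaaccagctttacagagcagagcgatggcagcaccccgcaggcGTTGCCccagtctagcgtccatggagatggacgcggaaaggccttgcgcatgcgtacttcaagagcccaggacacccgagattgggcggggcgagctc
Kif3b: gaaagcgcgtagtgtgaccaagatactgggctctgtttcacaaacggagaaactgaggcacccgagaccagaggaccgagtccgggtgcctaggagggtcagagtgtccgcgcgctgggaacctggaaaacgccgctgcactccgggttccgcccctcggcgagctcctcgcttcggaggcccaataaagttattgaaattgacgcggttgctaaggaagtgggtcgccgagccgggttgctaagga

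Kif21a, a slow kinesin that restrains microtubule growth, completed the axonal list. It had 2, 4, 2, 1, 2 and 2 molecules in cells 3, 5, 6, 7, 8 and 9 and 0 in cells 1, 2 and 4. Of the 13 kinesins outside the axonal, mitotic and cilium lists, none was seen in 5 cells, beside 7.00% of all genes, and 7 were seen in at least 1 cell (53.8%, beside 41.4% of all genes). Kif2a, which takes microtubule ends apart (chromosome 13, 106958996 to 107022126, minus strand), had 7 of its 10 molecules in cell 7, or 9.78 per 10000 (interval 3.93 to 20.1), with 2 in cell 8 and 1 in cell 2. Cell 7 carries endothelial markers, and their part in this count was not tested. Kif2a also overlaps an exon of Dimt1 on the other strand. Kif17, a dendritic motor, had 5 molecules in 4 cells, and Kif13b, Kif16b and Kifc3 had 0.

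**Figure D3:**
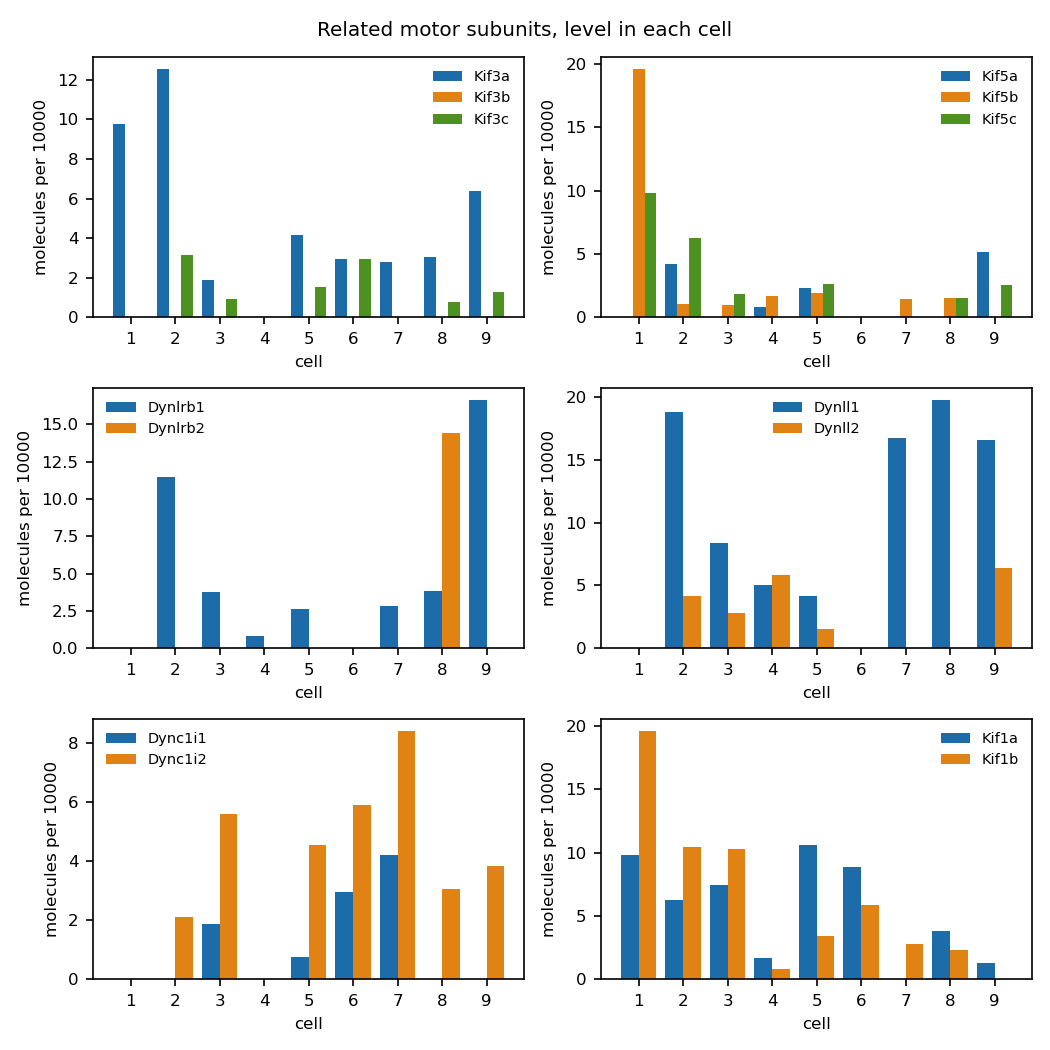
Level of related subunits in each cell, in molecules per 10000 gene molecules: the Kif3, Kif5, Dynlrb, Dynll, Dync1i and Kif1 genes, 1 panel each. Kif3b has no bar in any cell, and Dynlrb2 has a bar in cell 8 alone, at 14.4.

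The core of cytoplasmic dynein, the retrograde motor, had fewer molecules than the axonal kinesins. Its 5 subunit genes had 0, 6, 16, 0, 29, 5, 11, 9 and 3 molecules in cells 1 to 9, 79 in all, and 2.93 per kilobase against 3.44 for the axonal kinesins. Axonal kinesins took 72.2% of the molecules of both lists (interval 66.6 to 77.3%), and without cells 4, 5, 7 and 8 they took 76.9%, with 100 molecules against 30. In cell 2 they took 87.5% (interval 74.8 to 95.3%) and in cell 7 only 35.3% (interval 14.2 to 61.7%). These 2 intervals do not overlap, and cell 7 was the only cell with more dynein core than axonal kinesin molecules, 11 against 6. Cells 1 and 4 had 0 dynein core molecules, which allows up to 29.4 and 2.50 per 10000.

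Within the core, Dync1i2, an intermediate chain that ties dynein to dynactin, led. On chromosome 2 at 71211706 to 71263303 (plus strand), it had 2, 6, 12, 2, 6, 4 and 3 molecules in cells 2, 3, 5, 6, 7, 8 and 9. Its paralog Dync1i1, known as the more neuronal form, had 2, 2, 1 and 3 molecules in cells 3, 5, 6 and 7. Dync1i2 had more molecules than Dync1i1 in all 7 cells where it was seen, and took 81.4% of those of both (interval 66.6 to 91.6%), with 13.3 against 2.94 molecules per kilobase. The heavy chain Dync1h1, the ATPase of the motor (chromosome 12, 110601452 to 110666945, plus strand), had 3, 6, 9, 1 and 2 molecules in cells 2, 3, 5, 7 and 8 and an overlapping exon on the other strand. The light intermediate chains Dync1li2 and Dync1li1 had 9 and 6.

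The dynein light chains held 232 molecules, or 15.0 per kilobase. Over all cells this was more than in any other role group, but 74 of them lay in cell 8, and without cells 4, 5, 7 and 8 the light chains and the axonal kinesins had 100 molecules each. The total includes 26, 9, 4 and 2 molecules of Dynlt1b, Dynlt1c, Dynlt1f and Dynlt1a, near-identical copies whose reads may stand in several rows. The lead over the axonal kinesins is therefore uncertain. Dynll1, the light chain LC8, which also binds many proteins outside dynein, is a gene of chromosome 5 (115297110 to 115300999, minus strand). It had 0, 18, 9, 6, 11, 0, 12, 26 and 13 molecules in cells 1 to 9. Its level was 16.6 to 19.7 per 10000 in cells 2, 7, 8 and 9, and 4.16 (interval 2.07 to 7.44) in cell 5, the deepest cell, whose interval lies below the intervals of those 4 cells. Dynll2, nearly the same protein from another gene, had 0, 4, 3, 7, 4, 0, 0, 0 and 5. Dynll1 took 80.5% of the molecules of both (interval 72.2 to 87.2%), with 46.8 against 9.29 molecules per kilobase, and only cell 4 had more Dynll2, 7 against 6. Of the 30-base stretches of Dynll1, 10.5% also occur in other transcripts, so part of its count is uncertain.

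The roadblock light chains divided by cell. Dynlrb1 (chromosome 2, 155236533 to 155250277, plus strand) had 0, 11, 4, 1, 7, 0, 2, 5 and 13 molecules in cells 1 to 9. Dynlrb2 (chromosome 8, 116504974 to 116515915, plus strand), known from ciliated tissues, had 19 molecules in cell 8 and 0 in the other 8 cells. In cell 8 this was 14.4 per 10000 (interval 8.68 to 22.5). The value of 14.4 is 37.6-fold the limit of 3 molecules in the 78194 gene molecules of the other cells, with its own counting error left out. The 19 molecules were also above the 5 of Dynlrb1 in the same cell. Among the 27 members with at least 10 molecules, 2, Dynlrb2 and Kif2a, had at least 70% of them in 1 cell, against 7.03% of all genes with at least 10 molecules.

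Cell 8 was the cell with ependymal markers, and other genes of cilia lay there as well. There the markers Tmem212, Ccdc153, Rarres2 and Foxj1 had 25, 24, 20 and 3 molecules, and Foxj1, with 2 molecules each in cells 3 and 4, was the only one seen elsewhere. The cilium kinesins Kif6, Kif9 and Kif27 had 5 of their 6 molecules in cell 8, at 1 or 2 each, the last being 1 of Kif9 in cell 4. The other 3 cilium kinesins, Kif7, Kif19a and Kif24, had 0 in every cell, cell 8 included. Of the 48 molecules of axonemal dynein genes, 29 were in cell 8, with 8 of Dnah6, 5 of Dnaic1 and 4 each of Dnah1 and Dnah5. Other genes of this list lay elsewhere: Dnal4 had 1 of its 7 molecules in cell 8, and Dnah9 had 3, all in cell 4. The part of the ependymal markers in the Dynlrb2 count was not tested. The bases before the starts of the roadblock genes are shown because the genes differ so sharply in cell 8. The window of Dynlrb2 holds GTTGCC 51 bases before the RefSeq start, and these letters are not in the windows of Dynlrb1, where near matches were not searched either. The stretches are chr2:155236283-155236532 and chr8:116504765-116504973, both on the plus strand, the latter ending where the GENCODE transcript begins.
Dynlrb1: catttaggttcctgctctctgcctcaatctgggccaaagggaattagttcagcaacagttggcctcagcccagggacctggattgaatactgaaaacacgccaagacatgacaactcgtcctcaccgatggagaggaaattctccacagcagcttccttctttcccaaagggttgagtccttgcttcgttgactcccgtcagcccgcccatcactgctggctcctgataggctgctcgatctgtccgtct
Dynlrb2: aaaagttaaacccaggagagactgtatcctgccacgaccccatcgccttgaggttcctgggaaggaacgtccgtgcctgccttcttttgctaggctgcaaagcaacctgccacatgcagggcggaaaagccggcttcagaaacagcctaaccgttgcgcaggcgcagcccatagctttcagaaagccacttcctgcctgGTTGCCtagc

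The Tctex-type light chains come from near-identical copies. Dynlt1b had 7, 3, 3, 11 and 2 molecules in cells 2, 3, 5, 8 and 9, Dynlt1c had 9 in all and Dynlt1a and Dynlt1f had 2 and 4. In the annotated transcripts 87.2% of the 30-base stretches of Dynlt1b, 96.1% of those of Dynlt1c and 96.0% of those of Dynlt1f also occur in another gene. How the reads were divided among the copies is therefore uncertain, and the same read may stand in several rows. Dynlt3, a separate gene on the X chromosome, shares 0% and had 4, 1, 2 and 4 molecules in cells 2, 4, 6 and 8.

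Dynein-2, which carries cargo back along the cilium, was seen through its heavy chain Dync2h1 (chromosome 9, 6928503 to 7184446, minus strand). It had 1, 1, 2, 5, 1 and 4 molecules in cells 2, 3, 5, 7, 8 and 9, so its highest counts were not in the cell with ependymal markers. Its light intermediate chain Dync2li1 had 2 molecules in cell 8 and 1 in cell 5.

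Dynactin, the activator of dynein, was seen in every cell but cell 6. Of its 6 subunit genes here, 4 were in at least 5 cells and the others in 1 to 4, beside 7.00% of all genes in at least 5 cells. Without cells 4, 5, 7 and 8 the group had 31 of its 61 molecules, and 3 of the 6 genes were in at least 3 of the 5 cells. Dctn1, the p150 subunit that binds microtubules, had 4, 1, 1, 2, 1, 1 and 2 molecules in cells 2, 3, 4, 5, 7, 8 and 9. Dctn2, Dctn3 and Dctn6 had 14, 13 and 11 molecules in all, and none of them had more than 5 in a cell. The group ranged from 0 in cell 6 and 1.66 per 10000 in cell 4 to 12.8 in cell 9, with a median of 7.56. Pafah1b1, or Lis1, the dynein regulator mutated in lissencephaly (chromosome 11, 74673949 to 74724670, minus strand), had 9 of its 18 molecules in cell 2, or 9.40 per 10000 (interval 4.30 to 17.8). It had 2, 5, 1 and 1 in cells 3, 5, 7 and 8 and 0 in the others. Ndel1, its partner, had 5 molecules in 3 cells.

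Among the adaptors, Mapk8ip2, which binds kinesin-1 and signalling kinases, was seen in 6 cells with 3, 2, 4, 1, 2 and 3 molecules in cells 2, 3, 5, 7, 8 and 9. Mapk8ip3, which links kinesin-1 and dynein to lysosomes and other organelles, had 8 of its 14 molecules in cell 9, or 10.2 per 10000 (interval 4.41 to 20.1), with 3, 2 and 1 in cells 7, 2 and 3. Cell 5, with the most gene molecules, had 0 of it, which allows up to 1.13 per 10000. Mapk8ip3 overlaps exons of Mrps34 and Nme3 on the other strand, from which reads cannot be separated without a strand setting. Cell 9 was the only cell on lane 4 by its column name, so cell and lane cannot be told apart. The 5 adaptor genes had 24 of their 39 molecules outside cells 4, 5, 7 and 8. The mitochondrial adaptors Trak1 and Trak2 had 4 and 5 molecules, and Mapk8ip1 had 1.

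Other genes of the same transport pathways, whose symbols are not those of motors, were looked at from a list of 24. Of these, 8 were in at least 5 cells (33.3%, against 7.00% of all genes), 14 in 1 to 4 cells and 2, Nde1 and Rilp, in none. When cells 4, 5, 7 and 8 were left out, 6 of the 24 were in at least 3 of the 5 cells, beside 5.99% of all genes. The gene with the most molecules was Hap1, the huntingtin-associated protein that binds kinesin light chain and dynactin and is abundant in the hypothalamus. It had 4, 15, 1, 0, 19, 0, 9, 6 and 17 molecules in cells 1 to 9. Kifap3, the kinesin-2 linker, had 25 molecules, Capza2, an actin-capping subunit also found in dynactin, had 24, and Actr10, a dynactin subunit, had 22, of which 12 lay in cell 5.

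**Figure D4:**
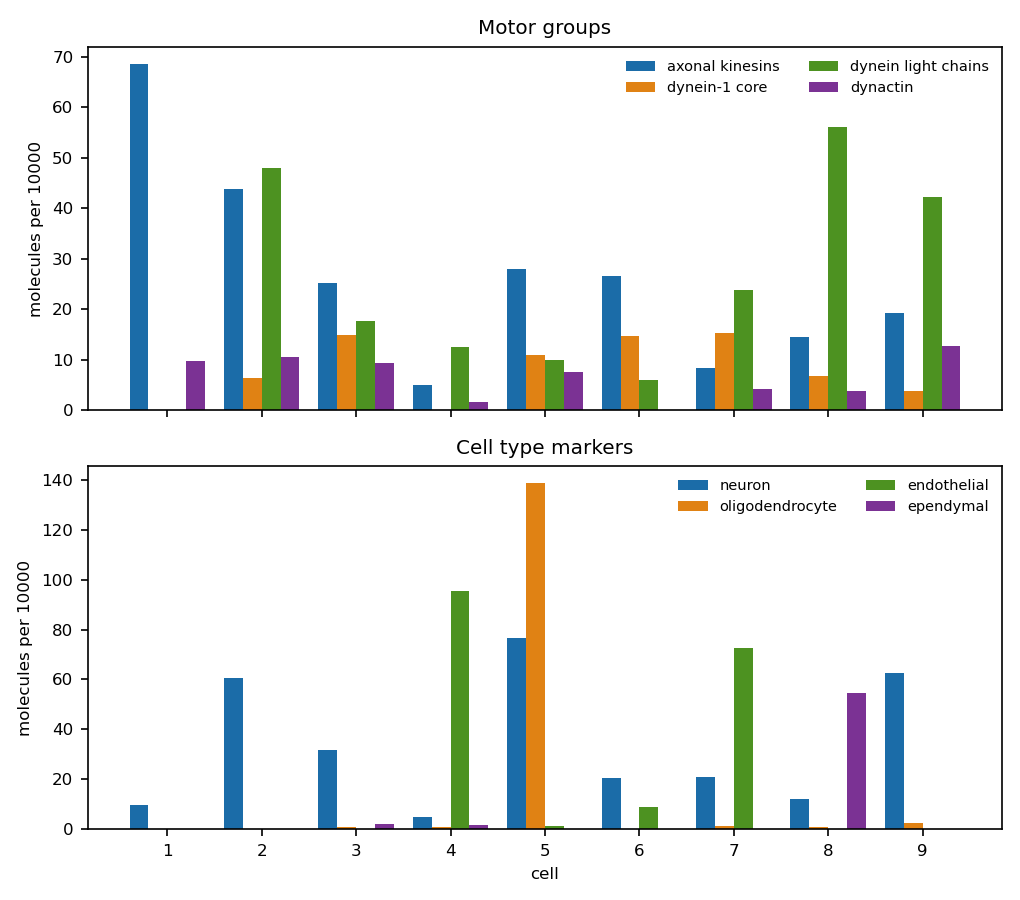
Molecules per 10000 gene molecules in each cell for 4 motor groups (above) and 4 marker lists (below). The axonal kinesins are lowest in cells 4 and 7, which hold most of the endothelial marker molecules. The dynein light chains reach 56.2 in cell 8, which holds most of the ependymal marker molecules, but 41.7 there without Dynlrb2, below cells 2 (48.1) and 9 (42.2).

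The 24 myosin genes had 1 member in at least 5 cells (4.17%, beside 7.00% of all genes). It was Myo5a, which carries vesicles and endoplasmic reticulum on actin, with 4, 1, 3, 1 and 2 molecules in cells 2, 5, 6, 7 and 8. Myo6, the myosin that walks toward the minus end of actin, had 1, 3, 1 and 1 in cells 4, 5, 6 and 8. Of the 8 class 1 genes, 4 were seen, with 9 molecules of which 4 lay in cell 4, and Myo1d had 3 in cell 5 alone. Myo9a had 4, 2, 2 and 2 in cells 2, 3, 5 and 9. Without cells 4, 5, 7 and 8, Myo9a was the 1 myosin in at least 3 of the 5 cells, beside 5.99% of all genes.

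The spread of each gene over the cells was measured as the index of dispersion, the variation of its counts around those expected from the gene totals of the cells, which is near 1 when counting error alone acts. Over the 30 motor genes with at least 9 molecules the median was 2.17, beside 1.93 over all 2062 such genes. The lowest was 0.536 for Klc1 and the highest 14.1 for Dynlrb2. After it came Kif2a at 7.03, Mapk8ip3 at 6.36, Dynlrb1 at 5.28 and Dynll1 at 5.19. Mapk8ip2, Kif3c and Dctn6 stood at 0.798, 0.843 and 0.989, so the spread of their counts was no wider than counting error around the depth of the cells gives. Among the axonal kinesins the ratio ran from 0.843 for Kif3c to 3.91 for Kif1b.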

How the data were processed

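The deposited table holds whole-number counts for each gene and cell, which the authors named molecules. The way duplicate reads were collapsed and the strand setting are not given in the sources used here. Bowtie and mm10 are named in the submitters' processing notes. Columns were matched to cells by the number in their names, with 0 columns unassigned. The members, gene lists and the rule for named genes were chosen with earlier results of these data known. The rule named every axonal kinesin, every mitotic kinesin with a molecule, every other member in at least 5 cells, up to 2 more of each role group, members with at least 10 molecules of which 70% lay in 1 cell, and 4 genes of each other list; the genes of 0 molecules and others named beside them were chosen after their values were seen.

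Where a symbol had several numbered loci, its highest row was used in each cell. Counts were divided by the cell's sum over genes, spike-ins left out, and multiplied by 10000. Transcript lengths are those of the longest coding transcript of GENCODE M21 (GRCm38/mm10), where all 99 members were found; 76 had a RefSeq promoter window. Of the 47 named members, 13 overlap an exon of another gene on the other strand: Kif3c, Kif5b, Kif18a, Kif22, Dync1h1, Klc1, Kif6, Kif2a, Klc2, Dync1li2, Dctn6, Mapk8ip3 and Myo9a. Whether a molecule count grows with transcript length is not given, so genes were compared both ways. With 1 sample there are no replicates, and intervals cover counting error only. Doublets were not called. The index of dispersion was tested on simulated data. Alternatives were other detection limits, thinning, other totals, other lists and leaving cells out. Software was numpy 2.4.6, scipy 1.17.1, matplotlib 3.10.9 and pandas 2.3.3 under Python 3.11.15.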

Additional observations from a re-analysis of the deposited data

Results flagged for a closer look

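Of 61 levels looked at over the 9 cells (the summed motors, their role groups and the named genes), in 23 a single cell stood apart: its distance to the next cell, as a share of the range, exceeded Dixon's 95% critical value. Chance alone flags about 1 in 20 sets when values are normally distributed, which counts of few molecules are not. The 23 of 61 can therefore not be set against that rate. Counts of few molecules are flagged readily: 5 of the 23 rest on 1 molecule. A gene seen in a single cell is flagged by construction, as were Kif6, Kif18a, Kif22, Klc2, Dynlrb2, Myo10 and Myo1d. The flag of the dynein regulators repeats that of Pafah1b1, their only gene with a molecule in the flagged cell. All values here are molecules per 10000 gene molecules.

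In cell 8 these were Dynlrb2 at 14.4, Kif6 at 1.52, Dync2li1 at 1.52 and the cilium kinesins together at 3.79. In cell 2 they were Pafah1b1 at 9.40, the dynein regulators at 9.40, the kinesin light chains at 4.18 and Klc2 at 2.09. Cell 7 stood apart in Kif2a at 9.78 and cell 9 in Mapk8ip3 at 10.2. Cell 4 stood apart in the class 1 myosins at 3.33, Kif18a at 0.832 and Myo10 at 0.832, and cell 5 in Myo1d at 1.13 and Kif22 at 0.756. The shallow cells 1 and 6 gave the others. In cell 1 these were Kif5b at 19.6, Dctn2 at 9.79 and Trak2 at 9.79, from 1 or 2 molecules each. In cell 6 they were the class 5, 6 and 10 myosins at 11.8, Myo5a at 8.84, Kif21a at 5.89, Dync1li2 at 5.89 and Myo6 at 2.95, from 1 to 4 molecules each.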

How the results depend on the processing

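The count of 22 motor genes in at least 5 cells was 11 with detection at 2 molecules, 5 at 3 molecules (1.45% of all genes) and 2 with all cells thinned to 1021 molecules. With at least 4 cells required the count was 35, where 2588 of all 23528 genes passed, and with at least 6 it was 14, where 4.09% of all genes passed. Leaving out each cell in turn gave 14 to 22, the lowest without cell 5, by construction since 5 cells were still required. The axonal share of 98.6% was 100% without cells 4, 5, 7 and 8 (cells 4 and 5 held all 3 mitotic molecules), 97.4% to 99.3% under the other lists and with cells weighted equally, and 98.2% to 99.2% without each cell. The median motor level of 83.8 per 10000 was 38.7 per 1000 spike-in molecules, a different unit, and 80.6 to 86.0 without each cell. Cell 9, the only cell on lane 4, had 614 spike-in molecules, against 1962 to 2184 in the others. This difference enters every value taken by spike-in totals. The median index of dispersion of 2.17 was 1.63 to 3.45 under the alternatives and 1.76 to 2.77 without each cell. It lay below that of all genes without cell 8 alone, 1.76 against 1.92, without cells 4, 5, 7 and 8, 1.63 against 1.84, and with spike-in totals, 3.30 against 3.80. Leaving out these 4 cells in the shares of related genes and groups was chosen after seeing the data; the Kif1a share of Kif1a and Kif1b molecules then went from 57.4% to 43.2%, and the Dynlrb1 share of both roadblock chains from 69.4% to 100%, since all Dynlrb2 molecules lay in cell 8.
No paired analysis was possible because there is 1 group of cells. Depth limits every 0 in cells 1 and 6.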
